A study of Mus musculus with 8 samples.

Results

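The zinc finger protein genes named Zfp and a number were examined on a mouse expression array, with 518 probes for 346 genes. They were chosen by their total RNA signal, as the noncontrol probes with such a gene name that the scanner software called well above background on the total RNA array of at least 1 stage, with Zfp42 left out. They came from 546 probes for 360 such genes, among 55681 probes for 36163 gene names in all. As the total RNA call chose them, their total RNA values are given as a description. Of the members, 461 were well above background on all 4 total RNA arrays, 25 on 3, 18 on 2 and 14 on 1. The 14 probes detected on a single total RNA array reached between 6.84 and 7.66 on the normalized log2 scale at their highest, and the 28 probes left out reached between 6.39 and 7.38, so the limit lay at the bottom of the range.

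The E14Tg2A line of mouse ES cells, from strain 129/Ola, was sampled at 4 stages of neural differentiation. These were undifferentiated ES cells (0 DIV, days in vitro), aggregates resembling epiblast (ELA, 2 DIV), neural progenitors (NPC, 6 DIV) and neural precursors (NPC/Neu, 10 DIV). At each stage total RNA and RNA bound to Argonaute (Ago), pulled down from cytosol with an antibody against all Ago proteins, were hybridized to 1 array each. RNA of 3 experiments was pooled on every array, so no value has a replicate, no test was possible and no p-value is given. All cells came from 1 line, and in such bulk samples fewer cells of a type and less RNA per cell cannot be told apart.

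Classical zinc finger proteins carry tandem fingers of the C2H2 kind, in which cysteine and histidine pairs hold a zinc ion, and each finger reads a few bases of DNA. Many also carry a KRAB box, a domain that recruits the corepressor Trim28 and thereby silences chromatin. In ES cells such KRAB zinc finger proteins are known for silencing endogenous retroviruses and for guarding imprinted genes. Their genes lie in tandem clusters that arose by duplication, and related copies share long stretches of sequence. Ago proteins carry miRNAs and bind mRNAs through short matches to the miRNA seed, which lowers translation or stability of the mRNA.

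Among the 341 member genes with a coding sequence in GENCODE, 321 encoded at least 1 C2H2 finger and 157 (46.0%) encoded the KRAB pattern (leucine-tyrosine, any pair of residues, valine-methionine), against 0.854% of all other coding genes. Genes with the KRAB pattern had a median of 12 fingers and the others had a median of 7, with at most 33. By chromosome, 81 member genes lay on chromosome 7, 42 on chromosome 17 and 34 on chromosome 13. Of the member probes, 278 lay in a 3′ UTR and 138 in coding sequence. A near copy in another gene, with at least 54 of the 60 probe bases identical, existed for 44 member probes, and 10 of them matched another gene over all 60 bases. A signal from these probes cannot be assigned to the named gene alone.

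The repeated build of these genes is visible in the probes themselves. The linker between neighboring fingers (threonine, glycine, glutamate, lysine and proline) occurred in 242 of 341 member genes (71.0%) and in 0.711% of 19685 other genes on the array. It lay in frame in 14 of the 137 coding member probes searched. The following 5 probes, written 5′ to 3′ on the sense strand with the 15 linker bases in capitals, show how far genes on different chromosomes share the linker and its surroundings.
Zfp947 (chr17:22282838-22282897, mm9, minus strand): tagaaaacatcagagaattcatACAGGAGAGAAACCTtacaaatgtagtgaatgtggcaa
Zfp81 (chr17:33471611-33471670, mm9, minus strand): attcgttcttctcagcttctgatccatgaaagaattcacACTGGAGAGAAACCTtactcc
Zfp386 (chr12:117298639-117298698, mm9, plus strand): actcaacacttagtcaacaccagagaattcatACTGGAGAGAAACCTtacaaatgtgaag
Zfp72 (chr13:74509332-74509391, mm9, minus strand): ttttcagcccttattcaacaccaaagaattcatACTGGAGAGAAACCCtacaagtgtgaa
Zfp936 (chr7:50445732-50445791, mm9, plus strand): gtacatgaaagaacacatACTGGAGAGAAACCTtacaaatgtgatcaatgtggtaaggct
All 5 probes lie in coding exons of the gene named. The Zfp947 probe was identical over 60 of 60 bases to another gene, the Zfp936 probe over 57, the Zfp386 probe over 56 and the Zfp72 probe over 53, whereas the Zfp81 probe had at most 50 identical bases elsewhere.

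On the arrays, between 52.4% and 60.2% of noncontrol probes were well above background and no spot was saturated. The raw mean signal had an upper quartile of 3039 for Ago–RNA of ES cells and of 1060 to 1774 for the other 7 arrays, lowest in ELA for both kinds of RNA. All 8 arrays were quantile normalized together. Repeat spots of 399 probes gave an SD of 0.13 to 0.18 for a log2 change in total RNA, 0.13 to 0.15 for Ago enrichment and 0.18 to 0.21 for its change, which covers noise between spots only. Nr0b1, of naive ES cells, read 13.5, 9.6, 8.2 and 8.7 at the 4 stages in order of time, Fgf5, of primed epiblast, read 11.97, 14.78, 7.48 and 7.89, and Hes5, of neural progenitors, read 9.0, 11.3, 16.3 and 16.2. Tbx3 and Dnmt3b moved like Nr0b1 and Fgf5, but other markers of these lists did not. Nanog had 1 of 2 probes that rose instead. Klf4, of naive cells, read 12.86, 9.85, 10.32 and 10.90, and Esrrb read 15.19, 12.45, 9.59 and 11.55. Otx2, of primed epiblast, was nearly level at 15.53, 16.06, 15.91 and 15.97. Among markers of young neurons, Tubb3 read 12.95, 13.65, 14.99 and 17.01, whereas Stmn2 read 14.44, 13.69, 13.85 and 15.73. Of the endoderm markers, Gata6 and Afp were not well above background on any total RNA array, whereas both probes of Sox17 were in NPC, at 8.32 and 7.84, and in NPC/Neu, at 7.01 and 7.30. T, of mesoderm, read 9.7 in NPC and Olig2, of glial precursors, read 9.3 in NPC/Neu.

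Total RNA of the Zfp genes changed about as often as that of all probes from ES to ELA, and less often at the last step. A call means a log2 change of at least 1, for probes well above background on both arrays. From ES to ELA 21 of 470 member probes rose past this limit and 19 fell, or 4.47% and 4.04%, against 4.19% and 4.42% of all 28558 probes. From ELA to NPC 54 of 465 rose (11.6%) and 29 fell (6.24%), against 9.95% and 9.13% of all probes. From NPC to NPC/Neu 11 of 489 rose (2.25%) and 15 fell (3.07%), against 5.86% and 4.11%. From ELA to NPC the members' share was thus above that of all probes for rises and below it for falls. The median changes of the members were -0.0045, 0.10 and -0.11 on the log2 scale, beside 0.02, -0.05 and -0.03 for all probes. Over the 4 stages 262 of 457 member probes measured throughout (57.3%) stayed within a log2 range of 1, as did 57.6% of all probes.

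The Zfp genes that fell included several known for roles in pluripotent cells. Zfp296, a factor tied to pluripotency and reprogramming, read 14.08, 11.87, 7.16 and 7.49 from the first to the last stage, a change of -2.21 on the log2 scale from ES to ELA and of -4.70 from ELA to NPC, the largest fall of any member at that step. Zfp819, a repressor expressed in pluripotent cells, read 12.68, 9.79, 8.54 and 9.26 in the same order, with a change of -2.89 from ES to ELA that was the largest fall at the first step. Both genes were thus highest in ES cells and had lost most of their signal by NPC. Zfp459 read 11.58 in ES cells and 9.63 in ELA and was not well above background later, so it was at least 6.81-fold lower in NPC than in ELA. The probes of Zfp57, the KRAB protein that maintains imprints, disagreed in size: one read 11.27, 8.41, 9.18 and 9.67, and the other 10.25, 9.75, 9.57 and 9.63. Their mean ES–ELA change was -1.68. Zfp534, a KRAB gene on chromosome 4, changed by -2.94 from ELA to NPC as the mean of 2 probes, both of which match another gene over 56 or more bases.

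The genes that rose were led by neural transcription factors. Zfp503, a repressor of the NET family known from the developing striatum, read 6.68, 6.94, 13.05 and 14.45 by its brighter probe, which was not well above background before NPC and was at least 68.2-fold higher in NPC than in ELA. Its other probe changed by 4.00 on the log2 scale over the same step. Zfp703, its relative in the NET family, read 8.57, 9.51, 13.24 and 12.99, a rise of 3.73 from ELA to NPC. Both were low in ES cells and ELA and high in NPC and NPC/Neu. They were named for the largest rises from ELA to NPC, so the gap between these stages follows from that choice. Zfp521, a driver of neural differentiation from ES cells, read 7.44, 9.29, 12.49 and 13.37 by its brighter probe and thus also rose at each step. Zfp536, a factor that restrains neuronal differentiation, was at least 49.4-fold and at least 33.0-fold higher in NPC than in ELA by its 2 probes. Zfp711, an X-linked factor tied to cognitive development, read 8.70, 8.79, 9.84 and 11.98 and had the largest rise of the last step, 2.15. Zfp467, by the mean of 4 probes, rose by 2.17 from ES to ELA, when Zfp629 rose by 2.11 and 1 probe of Zfp157 by 2.03. Falls at the last step were smaller, the largest being -2.03 for Zfp185, a LIM domain protein of the actin cytoskeleton, -1.63 for Zfp114 and -1.18 for Zfp322a.

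**Figure D1:**
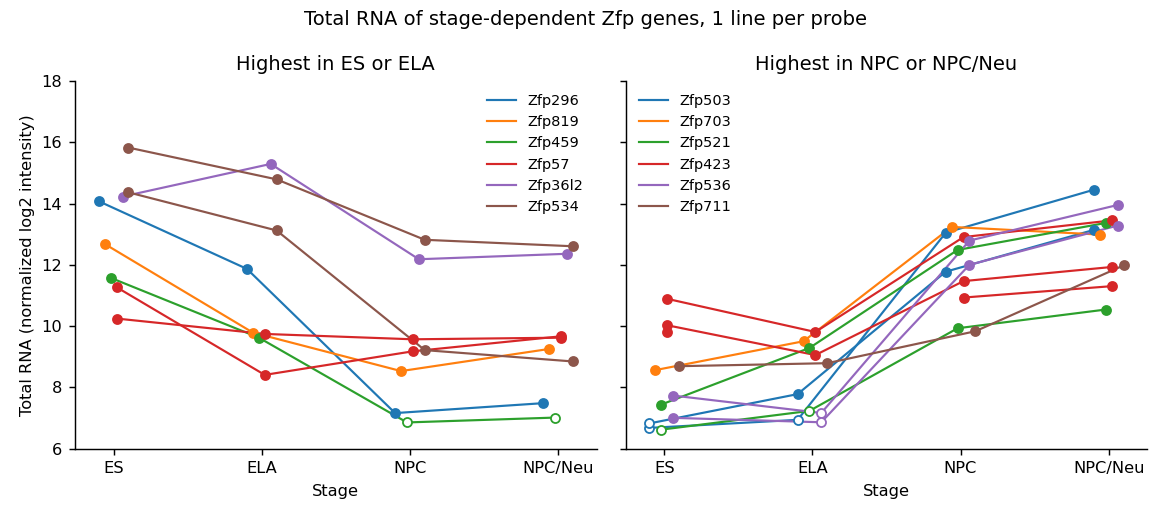
Total RNA (normalized log2 intensity) of 12 Zfp genes at the 4 stages, with 1 line per probe, genes set slightly apart along the axis, open circles where the probe was not well above background, and a gap where a spot was irregular. Zfp296 went from 14.08 in ES cells to 7.16 in NPC, and the brighter Zfp503 probe from 6.94 in ELA to 13.05 in NPC.

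The lists of known function below were drawn up with earlier results of these data known. Of 9 measured neural Zfp genes 6 rose by at least 1 from ELA to NPC and 0 fell, with a median of 1.04. At this step 9.95% of all probes and 11.6% of member probes rose. The neural list includes Zfp503, Zfp703 and Zfp521, named above for their rises, so its count adds no separate evidence. Of 8 pluripotency-linked genes 2 fell from ES to ELA (Zfp819 and Zfp296), 2 fell from ELA to NPC and 0 rose at either step, with medians of -0.095 and -0.47. Of all probes 4.42% and 9.13% fell at these steps. Among 7 KRAB repressors of known targets, Zfp57 fell from ES to ELA and Zfp809, which silences retroviruses in ES cells, fell by 1.34 from ELA to NPC. Of 17 measured genes of broad use 0 rose or fell at the first and the second step, and Zfp532 rose by 1.04 at the last. Of all probes 4.19% rose and 4.42% fell at the first step, and 9.95% and 9.13% at the second. The lists are short and were drawn up with earlier results known, so nothing is read from a count of 0. The CCCH proteins, which bind AU-rich elements and speed mRNA decay, diverged. Zfp36l2 read 14.23, 15.29, 12.18 and 12.36, a rise of 1.06 followed by a change of -3.11, whereas Zfp36l1 read 13.02, 12.95, 15.14 and 15.78, with a rise of 2.18 from ELA to NPC. The first was thus higher in ES cells and ELA and the second in NPC and NPC/Neu.

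Ago enrichment (E), the log2 Ago–RNA signal minus the log2 total RNA signal of 1 stage, had a higher median for Zfp mRNAs than for all probes at each of the 4 stages, by least in NPC. The rule did not use the Ago–RNA arrays. In ES cells the median E of 491 member probes was 0.40, with quartiles of -0.02 and 0.82, beside 0.04 over all 30754 probes. In ELA the medians were 0.22 and -0.02, in NPC 0.11 and 0.06, and in NPC/Neu 0.34 and 0.09. Both sets thus lay close together in NPC, with a difference of 0.06, and furthest apart in ES cells, with 0.36. The difference in ES cells lay between 0.36 and 0.60 under the 5 ways of scaling that were run.

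Few Zfp mRNAs were depleted from Ago. E reached 1 for 81 member probes in ES cells (16.5%) and -1 or below for 14 (2.85%), against 11.9% and 12.1% of all probes. In ELA 45 of 464 (9.7%) were at 1 or above and 7 (1.51%) at -1 or below, against 4.6% and 3.13%. In NPC 32 of 489 (6.54%) and 19 (3.89%) passed these limits, against 6.27% and 6.91%, and in NPC/Neu 76 of 486 (15.6%) and 25 (5.14%), against 13.4% and 12.4%. With each RNA type quantile normalized on its own, 143, 97, 75 and 132 member probes were at 1 or above in order of time. These were 29.1%, 20.9%, 15.3% and 27.2%, against 18.4%, 9.27%, 12.5% and 20.3% of all probes in that setting. Against all probes of any transcript length, the low side was thus thinned at every stage, and most in ES cells. E was above 0 at all 4 stages for 190 of the 449 member probes measured on all 8 arrays (42.3%), against 28.1% of all such probes, and below 0 at all 4 for 61 (13.6%), against 26.8%.

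**Figure D2:**
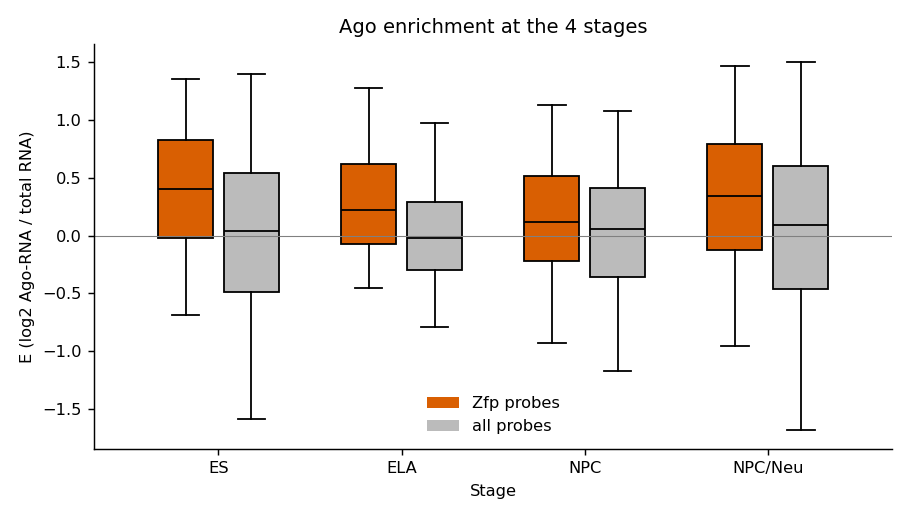
Ago enrichment E (log2) of the Zfp probes and of all probes at the 4 stages, as boxes from the lower to the upper quartile with the median as a line and whiskers from the 5th to the 95th percentile. The Zfp boxes sit above those of all probes in ES cells (medians 0.40 and 0.04) and nearly level with them in NPC (0.11 and 0.06).

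E rose with transcript length over all genes, so the comparison was repeated in 3 classes of length, with limits at 2046 and 3647 bases. In ES cells member probes for short transcripts had a median E of 0.24, against -0.32 for all short transcripts. For the middle class the medians were 0.27 and 0.19, and for long transcripts 0.67 and 0.73. The excess of the Zfp genes was thus found in the short class and not in the long class. The same order held in NPC/Neu, with 0.21 against -0.22 for short and 0.55 against 0.68 for long transcripts. The thinned low side also depended on length. In ES cells E was at -1 or below for 3.19% of short members against 18% of all short probes. For the middle class it was 3.27% against 3.93%, and for long ones 2.23% against 2.46%. Long members passed this limit more often than all long probes in ELA (2.96% against 0.881%), NPC (3.78% against 2.39%) and NPC/Neu (4.35% against 3.1%). Short members passed it less often in NPC/Neu (5.56% against 15.5%). The median transcript was 3094 bases for the member genes.

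**Figure D3:**
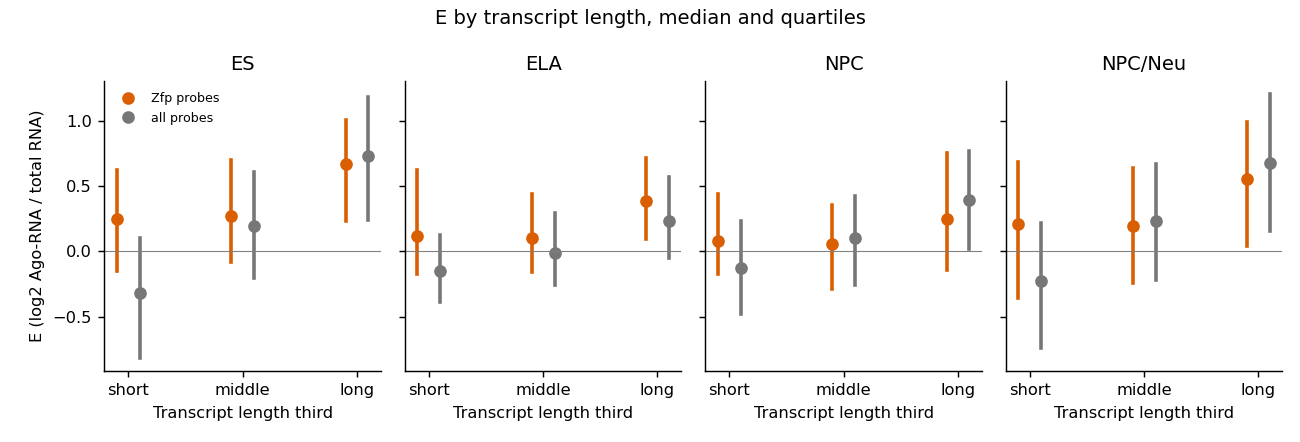
Median (points) and quartiles (lines) of E for Zfp probes and all probes by 3 classes of transcript length at the 4 stages. Short Zfp transcripts lie above all short transcripts at each stage, with medians of 0.24 and -0.32 in ES cells, and long ones lie level or below except in ELA, where they read 0.39 and 0.23.

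The highest gene values were 1.98 for Zfp710, 1.83 for 1 probe of Zfp397 and 1.72 for Zfp568 in ES cells. Zfp768 (2.44), Zfp385a (2.42) and Zfp36 (1.89) led in ELA, Zfp568 (1.71), Zfp367 (1.69) and Zfp960 (1.66) in NPC, and Zfp960 (2.42), Zfp704 (2.09) and Zfp568 (1.86) in NPC/Neu. Zfp568, a KRAB repressor of an Igf2 promoter in the embryo, was therefore enriched throughout while its total RNA declined, reading 13.41, 12.70, 11.75 and 11.19. Its E of 0.92 in ELA was the lowest of the 4. The Zfp960 probe matched another gene over all 60 bases.

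The lowest E in ES cells belonged to Zfp740 (-1.80), Zfp658 (-1.59) and Zfp420 (-1.47). In ELA it belonged to Zfp523 (-1.67), Zfp157 (-1.62) and Zfp719 (-1.05), in NPC to Zfp53 (-1.44), Zfp397 (-1.31) and Zfp820 (-1.25), and in NPC/Neu to Zfp53 (-1.98), Zfp658 (-1.90) and Zfp740 (-1.82). Zfp740 and Zfp658 were thus depleted at both ends of the series. Tristetraprolin (Zfp36), an mRNA decay factor, read 8.02 in total RNA and 8.64 in Ago–RNA in ES cells, and 7.78 and 9.68 in ELA. Its total RNA was not well above background in NPC and NPC/Neu, so it has no E there.

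Probes of the same gene often gave different E. Over 130 genes with several measured probes in ES cells the median gap between the highest and lowest probe was 0.42, and 27 genes had a gap of at least 1. The widest gaps were those of Zfp790 (-1.46 to 0.83), Zfp457 (-0.93 to 1.28) and Zfp787 (-1.72 to 0.26). For Zfp790 the lower value came from a coding probe, which read 10.08 in total RNA and 8.61 in Ago–RNA, and for Zfp787 from a probe whose mapped position was on chromosome 2 while the other 2 lay on chromosome 7. For Zfp457 the lower probe matched another gene over all 60 bases. Gaps of the ES–ELA change in total RNA were smaller, with a median of 0.23 over 122 genes.

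The change of E between stages (ΔE) was small for most Zfp mRNAs across the ES–ELA transition. From ES to ELA 17 of 464 member probes rose by at least 1 (3.66%) and 14 fell (3.02%), against 9.11% and 7.04% of all probes. The Zfp genes thus changed less often than the array as a whole at this step, in both directions. By class of transcript length, rises were rarer mainly for short transcripts, at 5.49% against 15.4% of all short probes. They were 4.48% against 4.21% for the middle class and 1.78% against 1.9% for long ones. Falls were rarer in each class, at 0% against 1.44%, 1.49% against 8.04% and 6.51% against 18% from short to long. The largest rises were those of Zfp367 (1.99), Zfp768 (1.57) and Zfp580 (1.47), and the largest falls those of Zfp157 (-2.01), Zfp710 (-1.73) and Zfp622 (-1.36), a factor of ribosome biogenesis. Zfp367 read 11.47, 11.38, 11.48 and 11.30 in total RNA but 11.29, 13.19, 13.17 and 11.22 in Ago–RNA. It was thus level in total RNA and higher on Ago in ELA and NPC than before and after.

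From ELA to NPC the Zfp genes stood out by falls of E. Of 454 member probes 40 fell by at least 1 (8.81%), against 3.75% of all 25593 probes, and 5 rose (1.1%), against 1.8%. These 40 probes covered 33 genes. Their median E was 0.93, 0.97, -0.41 and -0.03 in order of time, of which the ELA and NPC values follow from the choice of these probes. E was above 0 for 39 of them in ES cells, 12 in NPC and 20 in NPC/Neu. Ago–RNA was lower in NPC than in ELA for 36 of the 40, with a median change of -1.11, and total RNA was higher for 26, with a median change of 0.50. As ΔE is the difference of both changes, the Ago–RNA side was the larger in the median. The ELA values used here come from the arrays with the lowest raw signal, and the part of that in the falls was not tested.

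Among the Zfp members, the falls were more frequent for KRAB genes, through those on chromosome 17. Of the 40 probes 28 belonged to genes with the KRAB pattern, which made up 217 of the measured probes, so 12.9% of KRAB probes fell against 5.13% of the 234 without the pattern. The medians of ΔE were -0.20 and 0.03. At the next step they were 0.26 and 0.14, and E of the KRAB genes went from a median of 0.44 in ES cells over 0.27 and 0.02 to 0.32. With genes in place of probes 26 of 322 Zfp genes had a mean ΔE of -1 or below, against 641 of 19217 genes in all (3.34%).

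The falls were also uneven along the genome. On chromosome 17, 19 of 59 member probes (32.2%) fell by at least 1, against 21 of 395 elsewhere (5.32%) and 58 of 1275 other probes on chromosome 17 (4.55%). Among members off chromosome 17 the KRAB pattern made little difference, with 10 of 170 probes with it (5.88%) and 11 of 222 without it (4.95%). By gene the order there was the opposite, with 4.31% and 6.21%. Counted by gene, it was 11 of 42 on chromosome 17 (26.2%) and 15 of 280 elsewhere (5.36%). The median ΔE of the chromosome 17 members was -0.64 by probe and -0.32 by gene. Chromosome 13 followed with 7 of 37 member probes, whereas chromosome 7, which holds the most Zfp genes, had 3 of 106. With probes that have a near copy left out, 16 of 54 member probes on chromosome 17 fell.

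A single cluster held most of the chromosome 17 falls. Between 21165104 and 23713036 of mm9, 15 of 29 probes and 10 of 19 genes fell by at least 1, and 26 of the 29 probes were below 0, with a median of -1.01 by probe and by gene. A second cluster at 32910629 to 33768635 had 4 of 17 probes at -1 or below, with a median of -0.40 by probe and -0.09 over its 13 genes. In the first cluster 47 further probes that carry no Zfp name also had a median of -0.59, and 12 of them fell. Of these 47 probes, 43 matched no coding sequence by name, and 11 of the falls were theirs. The 2 probes of coding genes without a finger had a median of -0.20 and 0 fell, and 1 of 2 probes of genes with a finger fell. Among 17 clusters of 5 or more Zfp genes within gaps of 1 megabase, the next in order by gene was the chromosome 13 cluster at 67139715 to 67927746, with a median of -0.53 and 4 of 17 genes at -1 or below, and a median of -0.26 by probe. All clusters on chromosome 7 had a median between -0.35 and 0.17 by gene.

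The largest falls by gene belonged to Zfp820, Zfp946 and Zfp280d, of which Zfp820 and Zfp946 are KRAB genes of the cluster. Zfp820, at 21953843 to 21982726 on chromosome 17, had a gene value of -1.99 over 2 probes that agreed at -2.00 and -1.98. Its brighter probe read 11.33, 10.75, 11.04 and 9.90 in total RNA and 12.21, 11.40, 9.69 and 9.20 in Ago–RNA. Total RNA was thus nearly level up to NPC while Ago–RNA fell below it. Zfp946, at 22561189 to 22593656, read 11.59, 13.02, 12.26 and 12.35 in total RNA and 12.51, 13.78, 11.08 and 11.21 in Ago–RNA, with ΔE of -1.94. One Zfp944 probe went from E of 0.71 in ELA to -1.26 in NPC, whereas the other measured probes of Zfp944 fell by less than 1. Both Zfp947 probes fell by 1.60, the coding one being that printed above. Outside the cluster the largest falls of a single probe were those of Zfp182 on the X chromosome (-1.91), Zfp457 (-1.89) and Zfp595 (-1.85), both of the chromosome 13 cluster, and Zfp280d (-1.74). The second probes of Zfp182 and Zfp457 fell by 0.76 and 0.26, short of the limit. The 3 largest rises at this step were those of Zfp157 (1.47), Zfp449 (1.18) and Zfp960 (1.02), the last on chromosome 17 as well, outside the cluster.

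Genes of the same kind but without a Zfp name, which the membership rule did not use, were examined in the same way. Off chromosome 17 there were 55 probes for 34 genes that encode both the KRAB pattern and a finger under any other name. Near copies were searched for Zfp-named probes only, so matches of these 55 probes to Zfp genes were not checked. A coding probe of Zfp345, for example, was identical over 60 bases to a gene of another name. How much signal both sets share was not tested. Of the 55 probes 15 fell by at least 1 (27.3%) and 46 were below 0. Their median ΔE from ELA to NPC was -0.65 by probe and -0.49 by gene, and their median E was 0.56, 0.61, -0.12 and 0.39 in order of time. The share that fell was thus larger than among KRAB genes with a Zfp name off chromosome 17, where it was 10 of 170 probes (5.88%). This difference has no test.

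**Figure D4:**
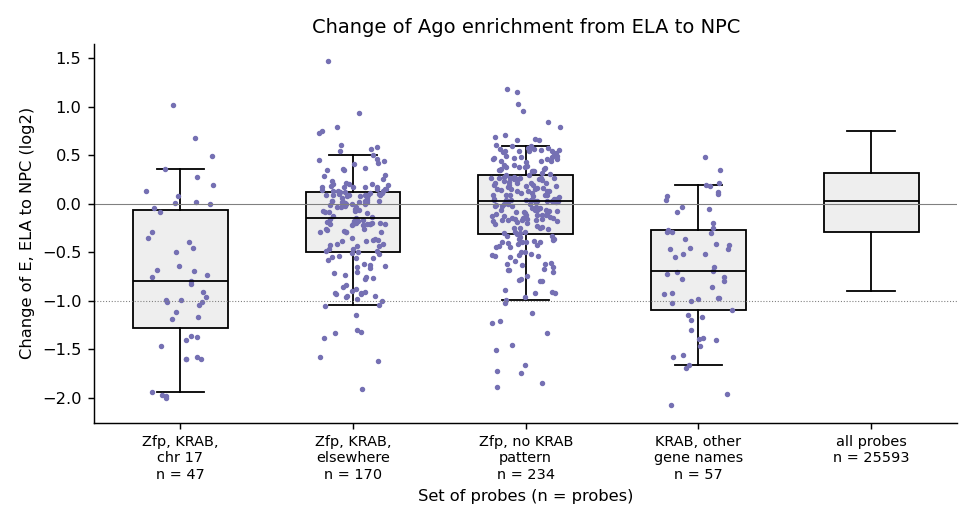
Change of E from ELA to NPC (log2) for KRAB Zfp probes on chromosome 17, KRAB Zfp probes elsewhere, Zfp probes without the KRAB pattern, probes of KRAB genes with other names, and all probes, with boxes from quartile to quartile, whiskers from the 5th to the 95th percentile, 1 point per probe except for all probes, and a dotted line at -1. The 57 probes of KRAB genes with other names include 2 on chromosome 17. The chromosome 17 box has a median of -0.79, the other KRAB Zfp probes -0.15, those without the pattern 0.03, and all probes 0.03.

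From NPC to NPC/Neu 7 of 478 member probes rose by at least 1 (1.46%) and 5 fell (1.05%), against 2.48% and 4.53% of all probes. The median ΔE was 0.19, beside 0.03 for all probes. The rises were led by Zfp600 (1.48), Zfp534 (1.28) and Zfp955b (1.16), all with the KRAB pattern, as were 6 of the 7 probes. Zfp600 read 12.34, 10.84, 8.18 and 7.83 in total RNA and 13.71, 12.38, 8.39 and 9.52 in Ago–RNA, so its E was above 1 in ES cells, ELA and NPC/Neu and 0.21 in NPC. The probes of these genes that passed the limit matched another gene over 59 or 60 bases, and without probes that have a near copy the count of rises was 4. The largest falls were those of Zfp367 (-1.76), Zfp706 (-1.23) and Zfp651 (-1.08). Both Zfp706 probes moved together, with Ago–RNA of 15.16 and 15.04 in NPC and 13.88 and 13.66 in NPC/Neu.

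No Zfp gene met the full criteria for release from Ago or loading onto it. These require Ago–RNA above a binding threshold, set from the signal distribution at 7.81 to 7.83, and E of at least 2 at one stage, E of at most 0.5 at the other and ΔE of at least 1.5 in size. From ES to ELA 0 of 346 member genes were released and 0 loaded, against 0.277% and 0.188% of all 36163 gene names. From ELA to NPC both counts were 0, against 0.13% and 0.0442%, and from NPC to NPC/Neu both were 0, against 0.0442% and 0.0553%. With shares this small over all genes, a count of 0 does not set the Zfp genes apart. Of the 40 probes that fell from ELA to NPC only those of Zfp768 and Zfp385a had E of at least 2 in ELA, and their E in NPC, 0.72 and 1.29, was above 0.5. With the background-subtracted intensity of the scanner software, quantile normalized, 5 Zfp genes met the criteria at that step, all of them released (Zfp182, Zfp595, Zfp112, Zfp738 and Zfp605). That was 1.45% of the members, against 1.62% of all gene names in the same setting. With the same intensity scaled to the 75th percentile, 5 genes (1.45%) were released at that step, against 0.83%. The members had to be detected in total RNA and the gene names did not, so the shares given here are not like for like.

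Because Ago binds through miRNA seeds, matches to 7 miRNA families were counted in the GENCODE sequences of the members. No miRNA was measured on these arrays, and the families were chosen with the values known. The mature sequences below are from RefSeq (GRCm38.p6) and written 5′ to 3′ with the seed (bases 2 to 8) in capitals. They belong to the 2 families whose matches in coding sequence set the Zfp genes apart most.
mmu-miR-181a-5p: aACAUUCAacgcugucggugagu
mmu-miR-23a-3p: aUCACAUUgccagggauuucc
The complement of the miR-181 seed is TGAATGT and that of the miR-23 seed is AATGTGA. They were searched on the sense strand only, and overlaps between both words were not removed. The Zfp947 probe again, with the miR-181 word in capitals, shows it downstream of the linker.
Zfp947 (chr17:22282838-22282897, mm9, minus strand): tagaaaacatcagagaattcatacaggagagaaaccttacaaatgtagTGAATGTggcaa

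The miR-181 word occurred in the coding sequence of 163 of 341 member genes (47.8%), against 10.8% of 19685 other genes, and at least 2 times in 108 (31.7%), against 1.28%. Per kb of coding sequence it occurred 1.49 times in KRAB members, 0.504 times in the other members and 0.082 times in other genes. The miR-23 word followed the same order at 1.24, 0.299 and 0.0961. In the 3′ UTR the miR-181 word was in 16.7% of member genes and 12.1% of others. For the family of miR-294, typical of ES cells, 14.7% of member genes and 11.4% of others had a match in the coding sequence, so the excess was not shared by all seeds. The most matches to the miR-181 word were 15, in Zfp534 and Zfp442, and Zfp820 had 13.

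The median ΔE from ELA to NPC was lower for genes with more miR-181 words, whereas falls of at least 1 were more frequent only with 5 or more. The groups share KRAB genes and their clusters. The median ΔE was 0.05 for the 161 measured genes without the word, -0.07 for 53 genes with 1, -0.19 for 56 genes with 2 to 4, and -0.37 for 49 genes with 5 or more. In the same order 9, 3, 2 and 12 of these genes were at -1 or below, beside 3.34% of all genes. E in ELA was 0.19, 0.24, 0.11 and 0.52 in the same order, and E in NPC was 0.16, 0.16, -0.02 and 0.00075. In ELA the last group thus had the highest median. A match is not a proven site, and the part of the miRNAs in these values was not tested.

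**Figure D5:**
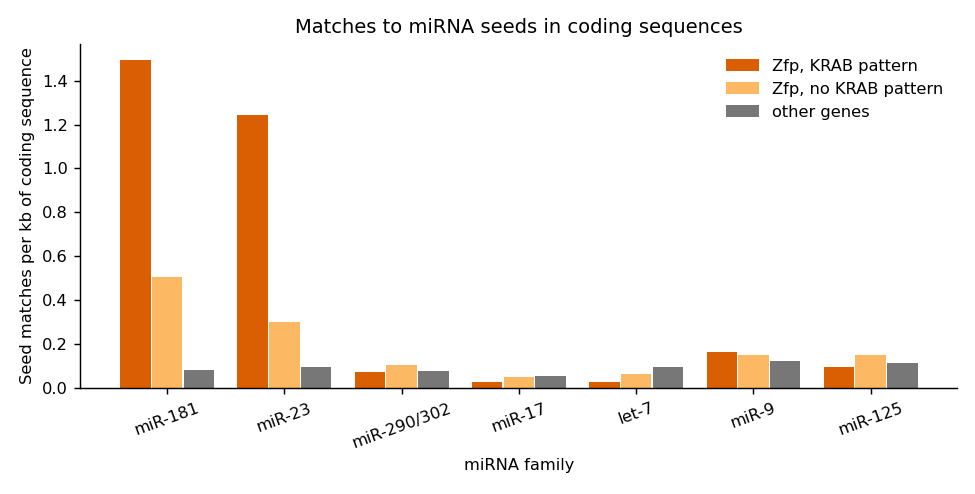
Matches to the seeds of 7 miRNA families per kb of coding sequence, as bars for Zfp genes with the KRAB pattern, Zfp genes without it and other genes on the array. The miR-181 and miR-23 bars reach 1.49 and 1.24 in KRAB Zfp genes against 0.082 and 0.0961 in other genes, and the other 5 families stay below 0.2 in each set.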

How the data were processed

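Log2 intensities were computed from 8 one-color Agilent arrays on 1 slide, with 1 array for total RNA and 1 for Ago–RNA at each stage. The deposited intensity values were scanner output that the authors made with Feature Extraction (10.7.3.1 in the file headers, 9.1 in the submitters' processing notes). Mean signals were background corrected here with normexp (offset 50) in limma 3.58.1 (R 4.3.3) and quantile normalized, control and irregular spots were left out, and spots of a probe were averaged. Probe positions are those of mm9 in the files. A fold against a probe not well above background is a lower bound. It was set against the lowest detected signal of that array or the probe's own signal there, whichever was higher. Binding thresholds came from mclust 6.1.1 (mean plus 3 SDs of the dimmer of 2 Gaussians). KRAB, finger and linker patterns were searched in GENCODE coding sequences translated here, in place of a RefSeq protein table. Near copies of Zfp-named probes were searched with blastn 2.17.0. The named genes are the 3 lowest and the 3 highest gene means of each quantity, beside fixed lists and genes singled out after their values were seen. The members and lists were chosen with earlier results of these data known. The comparison by chromosome 17, the KRAB genes of other names, the miRNA words and the setting without near copies were added after seeing the data. The scripts were tested on simulated data. Alternatives were another offset, the background-subtracted intensity with quantile or 75th percentile scaling, quantile normalization within RNA type, a filter on all 8 arrays, genes as units and another KRAB pattern. Some sequences are not reported here.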

Additional observations from a re-analysis of the deposited data

Results flagged for a closer look

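Zfp944 and Zfp820 were flagged because E of 1 probe each was at least 1 at one stage and at most -1 at another. For Zfp944, E went from 1.07 (ES) to -1.26 (NPC), and for Zfp820 from 1.16 (ES) to -1.14 (NPC). Such probes were 2 of 449 members (0.445%) and 63 of 24407 of all probes (0.258%), so their share was near that of all probes. The differences were not tested, as there was 1 array per condition.

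A signal was present on Ago–RNA arrays for 8 Zfp probes that were not well above background on any total RNA array and so were no members. By stage, in order of time, 6, 1, 3 and 3 of these were well above background in Ago–RNA.
Zfp526 was the only one of the 8 detected on all 4 Ago–RNA arrays, at 7.48, 7.29, 7.38 and 7.43 on the log2 scale in order of time, with total RNA between 6.73 and 6.95. It was chosen for mention after its values were seen.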

How the results depend on the processing

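No paired analysis was possible because each condition had 1 array, and leaving out replicates was not possible for the same reason. In no setting that was run did a called value change sign. The cause was not tested for any value given here. With quantile normalization within the Ago–RNA and within the total RNA arrays, the median E of the members was 0.64, 0.50, 0.37 and 0.57 at the 4 stages in order of time, with 143, 97, 75 and 132 probes at 1 or above (29.1%, 20.9%, 15.3% and 27.2%, against 18.4%, 9.27%, 12.5% and 20.3% of all probes) and, from ELA on, 3, 6 and 12 at -1 or below. The counts at -1 or below were 0.647%, 1.23% and 2.47%, against 2.45%, 4.48% and 8.7% of all probes. This setting and the 75th percentile scaling moved the median E of all probes by over 0.1 (to 0.16 and -0.29 in ES cells). Against that median the members stayed higher at every stage. In the same setting 8 probes fell in E at the last step (1.67%, against 4.25% of all probes). E of KRAB genes minus that of the others was -0.18 in NPC/Neu. By the release criteria 1 Zfp gene was loaded, 2 were released and 1 was released at the 3 steps. These were 0.289%, 0.578% and 0.289% of members, against 0.155%, 0.141% and 0.0498% of all gene names.

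With the background-subtracted intensity scaled to the 75th percentile, E was at -1 or below for 29 probes in ES cells, 11 in ELA and 33 in NPC. These were 5.91%, 2.37% and 6.75%, against 24.6%, 6.26% and 11.5% of all probes. ΔE then rose for 33 (7.11%) and fell for 22 probes (4.74%) from ES to ELA, against 17.7% and 7.29%. At the last step ΔE rose for 13 and fell for 13, or 2.72% each, against 3.24% and 6.27%. The KRAB difference in E in NPC/Neu was -0.23. By the release criteria 1 Zfp gene was loaded, 5 were released and 2 were loaded at the 3 steps. These were 0.289%, 1.45% and 0.578% of members, against 0.907%, 0.83% and 1.2% of all gene names. With the background-subtracted intensity quantile normalized, 30 probes fell in total RNA at the last step (6.1%, against 6.7% of all probes). In NPC 51 had E of 1 or above (10.4%, against 9.98%). In ΔE 28 fell from ES to ELA (6.03%, against 9.76%) and 8 rose from ELA to NPC (1.76%, against 3.37%). At the last step 21 rose and 9 fell in ΔE (4.39% and 1.88%, against 4.63% and 5.98%). By the release criteria 3 Zfp genes were released, 5 were released and 3 were loaded at the 3 steps. These were 0.867%, 1.45% and 0.867% of members, against 1.32%, 1.62% and 1.97% of all gene names. An offset of 16 gave 1 released gene from ELA to NPC (Zfp709) and 1 loaded gene at the last step (Zfp955b). Each was 0.289% of members, against 0.21% and 0.113% of all gene names.

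With genes as units, fewer items were counted. A share over all genes was computed only for falls of ΔE from ELA to NPC (3.34%). The other counts by gene have no such share beside them, and nothing is read from them. In total RNA 18 genes fell from ELA to NPC, and 6 rose and 8 fell at the last step. E passed 1 for 49 genes and -1 for 6 in ES cells, and 29 and 4 in ELA, with 10 at -1 or below in NPC and 16 in NPC/Neu. ΔE rose for 9 of 326 genes from ES to ELA. From ELA to NPC it rose for 3 of 322 genes and fell for 26, and at the last step it fell for 3 of 329. On chromosome 17 the median was -0.32 with 11 genes, and 9 KRAB genes of other names had a fall. The filter on all 8 arrays left 7 rises of total RNA at the last step, and leaving out near copies left 4 rises of ΔE there. With another KRAB pattern, KRAB genes minus the others in E in ES cells was -0.052, below 0 where the first pattern gave a value above 0. The larger share of falls in E from ELA to NPC among members than among all probes held under each scaling. Dim probes, which lie near background, limit small changes, and the single arrays limit all of them.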
